A study of Mus musculus with 12 samples.

Results

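The data described here are the mRNA levels of 50 genes of BMP and TGF-beta signalling in MLO-Y4 cells, an immortalised mouse osteocyte-like line that came from long bone. The 50 were all genes of the array, of 19938 with a symbol of their own, whose symbol begins with Bmp or Gdf and a number, with Bmpr, Acvr, Inha or Inhb, or is Tgfb1 to Tgfb3, Tgfbr1 to Tgfbr3, a numbered Smad, Nog or Grem1. They comprised 3 TGF-beta ligands, 10 BMP ligands, 8 GDF ligands, 5 activin and inhibin subunits, 2 secreted antagonists, 7 type I receptors, 4 type II receptors, 1 co-receptor, 5 receptor-regulated Smads, 1 common Smad and 2 inhibitory Smads, and the pattern of names also took in 2 genes that are neither ligands nor receptors, Bmp1 and Bmp2k. Each gene had 1 transcript cluster, the set of probes that the array reads as 1 transcript. Gdf15 is not analysed here.

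The arrays, Affymetrix Mouse Gene 1.0 ST, carry probes along the whole transcript, and there were 4 groups of 3. For 48 h the cells were cultured in the bore of a superconducting magnet, in a high magnetic field of large gradient (LG-HMF), at 3 positions with apparent gravity levels of μ-g (diamagnetic levitation, field of 12 T), 1-g (16 T) and 2-g (12 T), or outside the magnet under normal gravity and the geomagnetic field (control). All groups shared the cell line, the medium and the collagen coating of the flasks in which the cells were grown beforehand. The comparisons ask which transcripts differ with the apparent gravity level and with the field. Here μ-g against control is named set 1, 2-g against control set 2, 1-g against control set 3 and μ-g against 2-g set 4. The remaining pairs, μ-g v.s. 1-g and then 2-g v.s. 1-g, were added. Only set 4 compares positions of equal field strength. In set 3 both groups are at 1-g and differ in field and in the place of culture, which cannot be told apart. In the remaining comparisons gravity level and field differ together, in sets 1 and 2 the place of culture too, and cannot be told apart. The cells of a single line stand in for osteocytes, sets 1 to 3 share the same 3 control arrays, and the labels call the replicates biological without saying whether they were separate cultures, so p-values measure the spread between these arrays, which may be technical.

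Ligands of the TGF-beta superfamily bind as dimers to a complex of type II and type I receptor kinases. The type I receptor then phosphorylates receptor-regulated Smads, Smad2 and Smad3 downstream of TGF-beta and activin and Smad1, Smad5 and Smad9 downstream of most BMPs, which join Smad4 and enter the nucleus, while Smad6 and Smad7 inhibit the pathway. In bone, BMPs drive osteoblast differentiation, TGF-beta is stored in the matrix in latent form and couples resorption to formation, and osteocytes both make and respond to TGF-beta.

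Levels are log2 values after RMA normalization, and the arrays correlated with Pearson's r of 0.9965 to 0.9982 within groups and 0.9946 to 0.9985 between groups. Of 10 osteocyte markers 9 were measured, and none passed the test described below without the replicate number as a block. With the block Gja1 passed in set 4 (-0.24, limma, adjusted p = 0.0116) and in 2-g v.s. 1-g (0.23, adjusted p = 0.015). Pdpn, a marker of early osteocytes, ran from 12.06 to 12.36 over the 12 arrays and Gja1, a gap junction protein, from 11.95 to 12.39. Markers of mature osteocytes were low: Dmp1 ran from 5.42 to 5.78, Phex from 5.34 to 5.48, Mepe from 5.05 to 5.17 and Fgf23 from 6.67 to 7.06, all under the median gene level of 7.08, and Sost from 7.08 to 7.44. The same median gives a guide to the members. Of the 50, 27 had a mean above it and 23 under it, and the value table holds no detection calls, so at low values transcript and background cannot be told apart. The 23 were mainly ligands (Bmp2, Bmp3, Bmp4, Bmp5, Bmp7, Bmp8a, Bmp8b, Bmp10, Bmp15, Gdf2, Gdf3, Gdf6, Gdf9, Gdf10, Inha, Inhbb, Inhbc, Inhbe and Tgfb2), with the antagonist Nog and the receptors Acvr1c, Acvr2b and Bmpr1b. All 8 Smads, Smad1 to Smad7 and Smad9, lay above it.

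Without the replicate number as a block, only Tgfb2 and Tgfb3 of the 50 genes passed at an adjusted p under 0.05 (limma with Benjamini-Hochberg adjustment over all 19938 genes). Each passed in 2 of the 6 comparisons. In set 1, 1 member was called (Tgfb3, higher), against 0.823% of all genes. In set 2, 1 was called (Tgfb2, higher), against 3.11% of all genes. In set 3, 1 was called (Tgfb3, higher), against 0.321%, and in set 4, 1 (Tgfb2, lower), against 2.88%. No member was called in μ-g v.s. 1-g, where 0% of all genes passed. Nor was any called in 2-g v.s. 1-g, where 2.26% passed. The F test over the 4 groups called 2 members, Tgfb2 and Tgfb3, against 3.15% of all genes. With 50 members, 1 call is 2% of them and 2 calls are 4%.

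Tgfb2, 1 of the 3 TGF-beta ligands, rose in 2-g cells. Its levels were 6.91, 6.99 and 7.01 on the μ-g arrays, 6.94, 6.98 and 7.11 on the 1-g arrays, 7.15, 7.30 and 7.27 on the 2-g arrays and 6.75, 6.88 and 6.87 on the control arrays. All 2-g arrays lay above every other array, and all 9 magnet arrays lay above the 3 controls. In set 2 the log2 fold change was 0.41 ± 0.06 (SE, n = 3 arrays a group), or 1.32-fold (limma, adjusted p = 0.00712), the largest change of any member in sets 1 to 3. In set 4 it was -0.27 ± 0.06, so Tgfb2 fell in μ-g cells relative to 2-g cells (adjusted p = 0.0401). The values of 0.14 in set 1 (adjusted p = 0.343), 0.18 in set 3 (adjusted p = 0.307) and 0.23 in 2-g v.s. 1-g (adjusted p = 0.0823) did not pass, and the last passed with the replicate number as a block (adjusted p = 0.0107). The set 2 call held without any single array (adjusted p from 0.00726 to 0.0429), whereas the set 4 call was lost without any 1 of 8 arrays, the 3 μ-g arrays, 1-g replicate 2, 2-g replicates 2 and 3 and control replicates 2 and 3 (adjusted p up to 0.167). The mean of Tgfb2 over the 12 arrays was 7.01, just under the median gene level.

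Tgfb3, which like Tgfb2 encodes a secreted ligand that acts through Tgfbr2 and Tgfbr1, rose in μ-g and in 1-g cells. Its levels were 8.26, 8.49 and 8.41 on the μ-g arrays, 8.47, 8.35 and 8.37 on the 1-g arrays, 8.09, 8.19 and 8.20 on the 2-g arrays and 8.0, 8.10 and 8.04 on the control arrays. Every μ-g and 1-g array was above every 2-g and control array, and the 2-g and control arrays overlapped. The log2 fold change was 0.34 ± 0.06 in set 1 (1.27-fold, limma, adjusted p = 0.0334) and 0.35 ± 0.06 in set 3 (1.28-fold, adjusted p = 0.0426). In set 2 it was 0.12 (adjusted p = 0.389). The direct contrasts of these groups were 0.22 in set 4 (adjusted p = 0.0839, with the replicate block 0.0407) and -0.23 in 2-g v.s. 1-g (adjusted p = 0.0842, with the block 0.0398), so the difference between positions passed only with the block. In μ-g v.s. 1-g it was -0.01 (adjusted p = 1). The set 1 call was lost without any 1 of 7 arrays (μ-g replicates 1 and 3, 1-g replicate 3, 2-g replicate 3 and each control, adjusted p up to 0.129), and the set 3 call without any array but μ-g replicates 1 and 2 (adjusted p up to 0.145).

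Tgfb1, the ligand most studied in bone matrix, was at 11.72, 11.70 and 11.72 on the μ-g arrays, 11.78, 11.74 and 11.71 on the 1-g arrays, 11.64, 11.45 and 11.55 on the 2-g arrays and 11.74, 11.57 and 11.68 on the control arrays. Its 2-g arrays lay below all μ-g and 1-g arrays and overlapped the controls. The log2 fold change was -0.19 ± 0.06 in 2-g v.s. 1-g (adjusted p = 0.116, with the replicate block 0.0308) and 0.17 ± 0.06 in set 4 (adjusted p = 0.159). Thus on the 2-g arrays the Tgfb2 level was at its highest of the 4 groups and the Tgfb1 level at its lowest, and only the Tgfb2 difference from control passed the test.

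**Figure D1:**
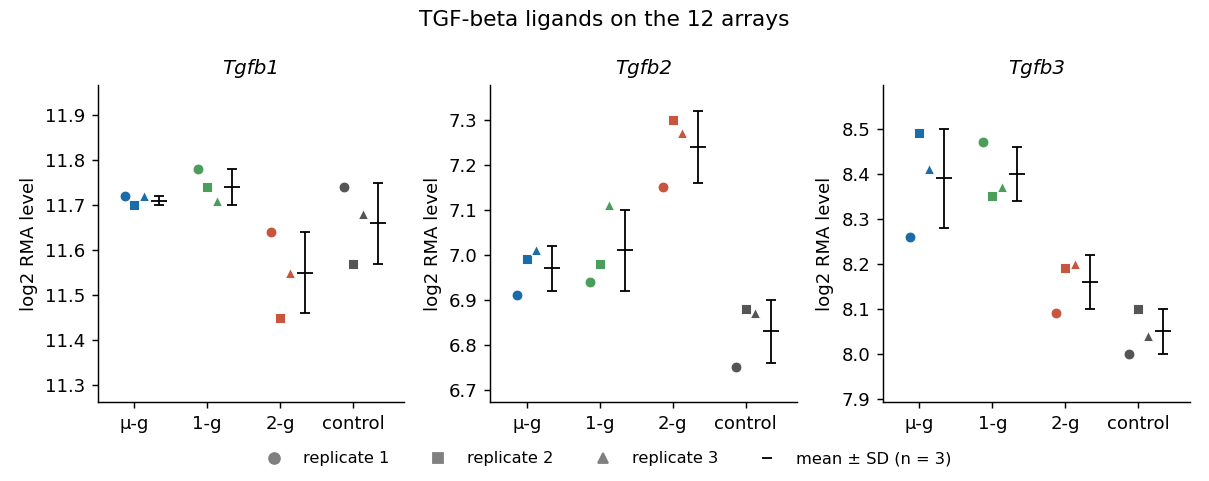
Log2 RMA levels of Tgfb1, Tgfb2 and Tgfb3 (y axes, each with its own range) in the μ-g, 1-g, 2-g and control groups (x axis), with 1 symbol per array by replicate number and bars for the mean ± SD (n = 3). The 2-g arrays of Tgfb2 (7.15 to 7.30) lie above all others, and the μ-g and 1-g arrays of Tgfb3 (8.26 to 8.49) above the 2-g and control arrays.

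The RefSeq promoter table (GRCm38.p6) held 35 of the 50 members and lacked 15, Tgfb3 among them. The 250 bases before an annotated start were searched on both strands for CAGAC (the Smad box, bound by Smad3 and Smad4), GGCGCC (a GC-rich Smad site), ACGTG (the core bound by hypoxia-inducible factors) and TATAAA (the TATA box). The motifs were chosen with results of these data known. Shown are the windows of the TGF-beta ligands Tgfb2 and Tgfb1, for their different levels at 2-g, and of Acvr1b and Bmpr1a, the receptors whose magnet arrays all lay above the controls, with matches in capitals. In Tgfb2 and Acvr1b the capitals CACGTG are the ACGTG core read on both strands, so that the pair of matches overlap.
Tgfb2, chr1:186705990-186706239, minus strand: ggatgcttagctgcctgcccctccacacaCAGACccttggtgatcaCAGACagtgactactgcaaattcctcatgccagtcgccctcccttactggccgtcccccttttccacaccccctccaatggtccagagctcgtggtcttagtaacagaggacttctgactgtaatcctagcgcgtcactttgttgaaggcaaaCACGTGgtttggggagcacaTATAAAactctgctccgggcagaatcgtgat
Tgfb1, chr7:25686752-25687001, plus strand: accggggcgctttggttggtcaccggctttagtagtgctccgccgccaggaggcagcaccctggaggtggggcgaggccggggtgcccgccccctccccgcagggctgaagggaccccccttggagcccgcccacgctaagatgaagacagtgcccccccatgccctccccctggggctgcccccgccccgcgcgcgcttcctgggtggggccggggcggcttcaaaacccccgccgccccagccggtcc
Acvr1b, chr15:101173822-101174071, plus strand: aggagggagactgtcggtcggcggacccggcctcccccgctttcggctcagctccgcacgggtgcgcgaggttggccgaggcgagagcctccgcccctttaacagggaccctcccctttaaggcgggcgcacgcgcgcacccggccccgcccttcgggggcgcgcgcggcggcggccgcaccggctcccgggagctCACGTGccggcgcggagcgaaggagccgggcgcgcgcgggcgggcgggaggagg
Bmpr1a, chr14:34502547-34502796, minus strand: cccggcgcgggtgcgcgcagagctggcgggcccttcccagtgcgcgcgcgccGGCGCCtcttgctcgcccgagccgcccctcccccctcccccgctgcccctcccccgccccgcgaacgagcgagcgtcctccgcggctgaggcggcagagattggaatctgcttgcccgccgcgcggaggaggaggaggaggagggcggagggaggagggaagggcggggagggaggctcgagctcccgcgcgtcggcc
The windows of Tgfb2 and Bmpr1a lie inside the annotated span of their gene, which also has a start further upstream. The Tgfb2 window held 2 Smad boxes, the overlapping pair of hypoxia cores and 1 TATA box, and the Tgfb1 window none of the 4 motifs. The Acvr1b window held the overlapping pair of hypoxia cores and the Bmpr1a window 1 GC-rich Smad site. CAGAC stood in 41.5% of 41 windows of members, against 42.2% of 32851 windows of all genes, and ACGTG in 17.1% against 16.6%. TATAAA stood in 14.6% against 12.4%, and GGCGCC in 17.1% (7 windows) against 9.59%. These matches describe the letters of the windows and no binding was measured.

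No receptor passed in any comparison without the replicate block, although the mean levels of several were higher in the magnet. Acvr1b (ALK4), the type I receptor of activins, was at 9.18, 9.02 and 9.19 on the μ-g arrays, 9.03, 9.16 and 9.04 on the 1-g arrays, 9.10, 8.98 and 9.22 on the 2-g arrays and 8.82, 8.82 and 8.92 on the control arrays. Bmpr1a (ALK3), a type I receptor of BMPs, was at 10.99, 10.85 and 11.03 on the μ-g arrays, 10.84, 10.96 and 10.81 on the 1-g arrays, 10.89, 10.83 and 10.91 on the 2-g arrays and 10.77, 10.69 and 10.63 on the control arrays. In both genes all 9 magnet arrays were above all controls. This held for 3 of the 50 members (Tgfb2, Acvr1b and Bmpr1a), against 2.54% of all genes, and all 9 lay below the controls in 0 members, against 0.923% of all genes. The log2 fold changes of Acvr1b were 0.27 in set 1 (adjusted p = 0.0956), 0.24 in set 2 (0.0862, with the replicate block 0.0407) and 0.22 in set 3 (adjusted p = 0.249), and those of Bmpr1a were 0.26, 0.18 and 0.17 (adjusted p = 0.0802, 0.149 and 0.328).

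Bmpr2, the type II receptor of BMPs, was at 10.76, 10.51 and 10.72 on the μ-g arrays, 10.67, 10.54 and 10.48 on the 1-g arrays, 10.74, 10.56 and 10.66 on the 2-g arrays and 10.54, 10.36 and 10.13 on the control arrays. Its controls spread more than any magnet group (SD 0.21), and the highest control overlapped the μ-g and 1-g arrays but not the 2-g arrays. The log2 fold change was 0.32 in set 1 (adjusted p = 0.172) and 0.31 in set 2 (adjusted p = 0.127, with the replicate block 0.0263). Acvr1 (ALK2), another type I receptor of BMPs, was at 9.20, 9.11 and 9.20 on the μ-g arrays, 9.23, 9.14 and 9.26 on the 1-g arrays, 9.23, 9.25 and 9.47 on the 2-g arrays and 9.07, 9.12 and 9.14 on the control arrays. The 2-g arrays were above the controls and 1 of them, replicate 3, stood apart from the rest, with a set 2 log2 fold change of 0.20 (adjusted p = 0.122, with the block 0.0397).

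Tgfbr1 (ALK5), the type I receptor of TGF-beta, was at 10.17, 9.77 and 10.33 on the μ-g arrays, 10.05, 9.99 and 10.12 on the 1-g arrays, 9.74, 9.52 and 9.89 on the 2-g arrays and 10.05, 9.49 and 9.84 on the control arrays. It had the widest range of the 50 genes (0.83), and in each of the 4 groups replicate 2 was the lowest array. Its log2 fold change was 0.37 ± 0.15 in set 4 (adjusted p = 0.243, with the replicate block 0.0297) and -0.34 ± 0.15 in 2-g v.s. 1-g (adjusted p = 0.325, with the block 0.0478). Tgfbr2, the type II receptor of TGF-beta, ran from 9.20 to 9.57 and had a log2 fold change of 0.16 in set 2 (adjusted p = 0.207). Tgfbr3 (betaglycan), the co-receptor that presents Tgfb2 to the signalling receptors, was at 11.98, 11.82 and 12.09 on the μ-g arrays, 11.90, 11.88 and 11.99 on the 1-g arrays, 11.94, 11.96 and 12.08 on the 2-g arrays and 11.79, 11.83 and 11.88 on the control arrays. Its 2-g arrays were above all controls, with a log2 fold change of 0.16 in set 2 (adjusted p = 0.252). Of the remaining receptors, Acvr2a (7.51 to 7.95) and Acvr2b (6.91 to 7.09), the type II receptors of activins, Acvrl1 (7.39 to 7.56), a type I receptor known from endothelium, and Acvr1c (5.49 to 5.74) and Bmpr1b (5.55 to 5.83) had log2 fold changes between -0.19 and 0.17 in the 6 comparisons.

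**Figure D2:**
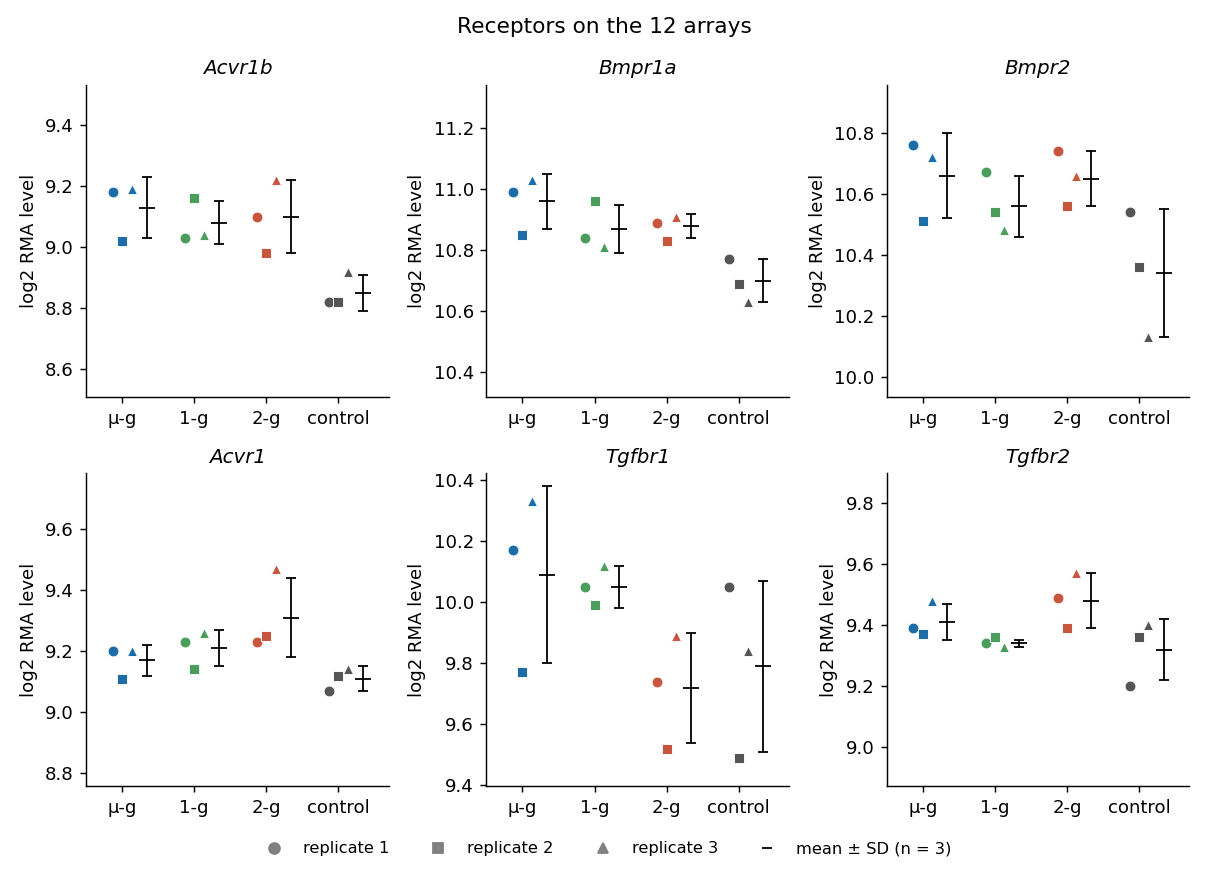
Log2 RMA levels of 6 receptor genes (y axes, each with its own range) in the μ-g, 1-g, 2-g and control groups (x axis), with 1 symbol per array by replicate number and bars for the mean ± SD (n = 3). All magnet arrays of Acvr1b (8.98 to 9.22) and Bmpr1a (10.81 to 11.03) lie above their controls, while the groups of Tgfbr1 and Tgfbr2 overlap in most comparisons.

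Among the Smads, none passed without the block. Smad3, the transcription factor of TGF-beta and activin signals, was at 11.28, 11.36 and 11.35 on the μ-g arrays, 11.21, 11.23 and 11.35 on the 1-g arrays, 11.29, 11.47 and 11.44 on the 2-g arrays and 11.01, 11.24 and 11.21 on the control arrays. The 2-g arrays and the μ-g arrays were above all controls and the 1-g arrays overlapped them. In set 2 its log2 fold change was 0.25 ± 0.07 (adjusted p = 0.0902, with the replicate block 0.0119), in set 1 0.18 (adjusted p = 0.281) and in set 3 0.11 (adjusted p = 0.655). Smad2, its partner, ran from 9.34 to 9.75 and differed most in 2-g v.s. 1-g (-0.18, adjusted p = 0.281).

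Smad6, an inhibitor that acts mainly on BMP signals and is itself a BMP target, was at 8.66, 8.60 and 8.55 on the μ-g arrays, 8.66, 8.47 and 8.62 on the 1-g arrays, 8.85, 8.68 and 8.83 on the 2-g arrays and 8.44, 8.55 and 8.69 on the control arrays. The 2-g arrays were the highest group and the lowest of them overlapped the highest control. Its log2 fold change was 0.23 in set 2 (adjusted p = 0.127), 0.21 in 2-g v.s. 1-g (adjusted p = 0.196) and -0.19 in set 4 (adjusted p = 0.219). Smad7, the inhibitor of TGF-beta and BMP signals, ran from 9.17 to 9.72, with values between -0.09 and 0.02 in the 6 comparisons. Smad4, shared by both branches, varied little, at a mean of 11.04 ± 0.03 on the μ-g arrays, 11.01 ± 0.02 on the 1-g arrays, 11.02 ± 0.03 on the 2-g arrays and 10.96 ± 0.03 on the control arrays (SD, n = 3), with a largest log2 fold change of 0.07 in set 1 (adjusted p = 0.472). The BMP-type Smads Smad1 (8.45 to 8.63), Smad5 (9.39 to 9.88) and Smad9 (8.28 to 8.53) had their largest values of -0.02 in μ-g v.s. 1-g, 0.19 in set 1 and 0.15 in set 2.

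None of the 10 BMP ligands or 5 activin and inhibin subunits passed in any comparison, with or without the block. Bmp2 (5.22 to 5.46) and Bmp4 (6.17 to 6.45), which induce bone formation, had log2 fold changes between -0.12 and 0.08 in the 6 comparisons. Bmp6 ran from 7.75 to 8.12 and was the 1 BMP ligand with a mean above the median gene level. Bmp7, a ligand of kidney development and bone induction, was at 6.83, 6.73 and 6.80 on the μ-g arrays, 6.71, 6.68 and 6.65 on the 1-g arrays, 6.73, 6.47 and 6.56 on the 2-g arrays and 6.69, 6.64 and 6.79 on the control arrays. The lowest μ-g array met the highest 2-g array, and the log2 fold change was 0.20 in set 4 (adjusted p = 0.137). Bmp15, known as an oocyte factor, was at 5.50, 5.42 and 5.48 on the μ-g arrays, 5.21, 5.46 and 5.26 on the 1-g arrays, 5.36, 5.40 and 5.40 on the 2-g arrays and 5.56, 5.55 and 5.43 on the control arrays. Its 1-g arrays spread most and overlapped the controls, with a value of -0.20 in set 3 (adjusted p = 0.264). Inhba, the subunit that forms activin A, ran from 10.56 to 11.11 and had its largest value in set 1 (0.14, adjusted p = 0.643). Inhbe, the activin E subunit known from liver, was at 6.24, 6.15 and 6.03 on the μ-g arrays, 6.06, 5.95 and 6.09 on the 1-g arrays, 6.09, 5.87 and 6.01 on the 2-g arrays and 6.17, 6.12 and 6.14 on the control arrays. Its 2-g arrays were below the controls, with a value of -0.15 in set 2 (adjusted p = 0.288).

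Of the 8 GDF ligands, Gdf10 was at 6.59, 6.67 and 6.54 on the μ-g arrays, 6.71, 6.72 and 6.72 on the 1-g arrays, 6.88, 6.74 and 6.79 on the 2-g arrays and 6.66, 6.77 and 6.81 on the control arrays. Its μ-g arrays were below all 1-g and 2-g arrays, with a log2 fold change of -0.20 in set 4 (adjusted p = 0.0767) and -0.15 in set 1 (adjusted p = 0.247). Gdf11, a relative of myostatin, was at 8.07, 8.23 and 8.24 on the μ-g arrays, 8.01, 8.19 and 8.35 on the 1-g arrays, 7.99, 8.35 and 8.24 on the 2-g arrays and 7.64, 8.06 and 8.12 on the control arrays. In each of the 4 groups replicate 1 was the lowest, and control replicate 1 stood apart. The set 2 value of 0.26 missed the threshold at adjusted p = 0.357 and passed with the replicate block at adjusted p = 0.0343. Gdf5, a factor of joint formation, had the same low control replicate 1 (8.44, against 8.74 to 9.22 on the other 11 arrays) and values between -0.07 and 0.13 in the 6 comparisons.

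Neither of the 2 secreted BMP antagonists passed in any comparison, with or without the block. Grem1 (gremlin 1) lay within 13.36 to 13.47 on all 12 arrays, and its log2 fold changes ran from -0.01 to 0.04. Nog (noggin) was at 7.03, 7.01 and 7.06 on the μ-g arrays, 6.97, 6.90 and 6.99 on the 1-g arrays, 6.77, 7.00 and 6.93 on the 2-g arrays and 7.03, 6.92 and 6.88 on the control arrays. The μ-g arrays were just above the 2-g arrays, with a value of 0.14 in set 4 (adjusted p = 0.294). Of the genes taken in by name, Bmp1, a procollagen C-proteinase that also cleaves the BMP antagonist chordin, ran from 10.52 to 10.87 and had a value of 0.15 in set 2 (adjusted p = 0.314). Bmp2k, a kinase named after its induction by BMP2, was at 10.83, 10.44 and 10.81 on the μ-g arrays, 10.71, 10.57 and 10.62 on the 1-g arrays, 10.62, 10.36 and 10.54 on the 2-g arrays and 10.63, 10.29 and 10.41 on the control arrays. The groups overlapped, and the value in set 1 was 0.25 (adjusted p = 0.332).

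**Figure D3:**
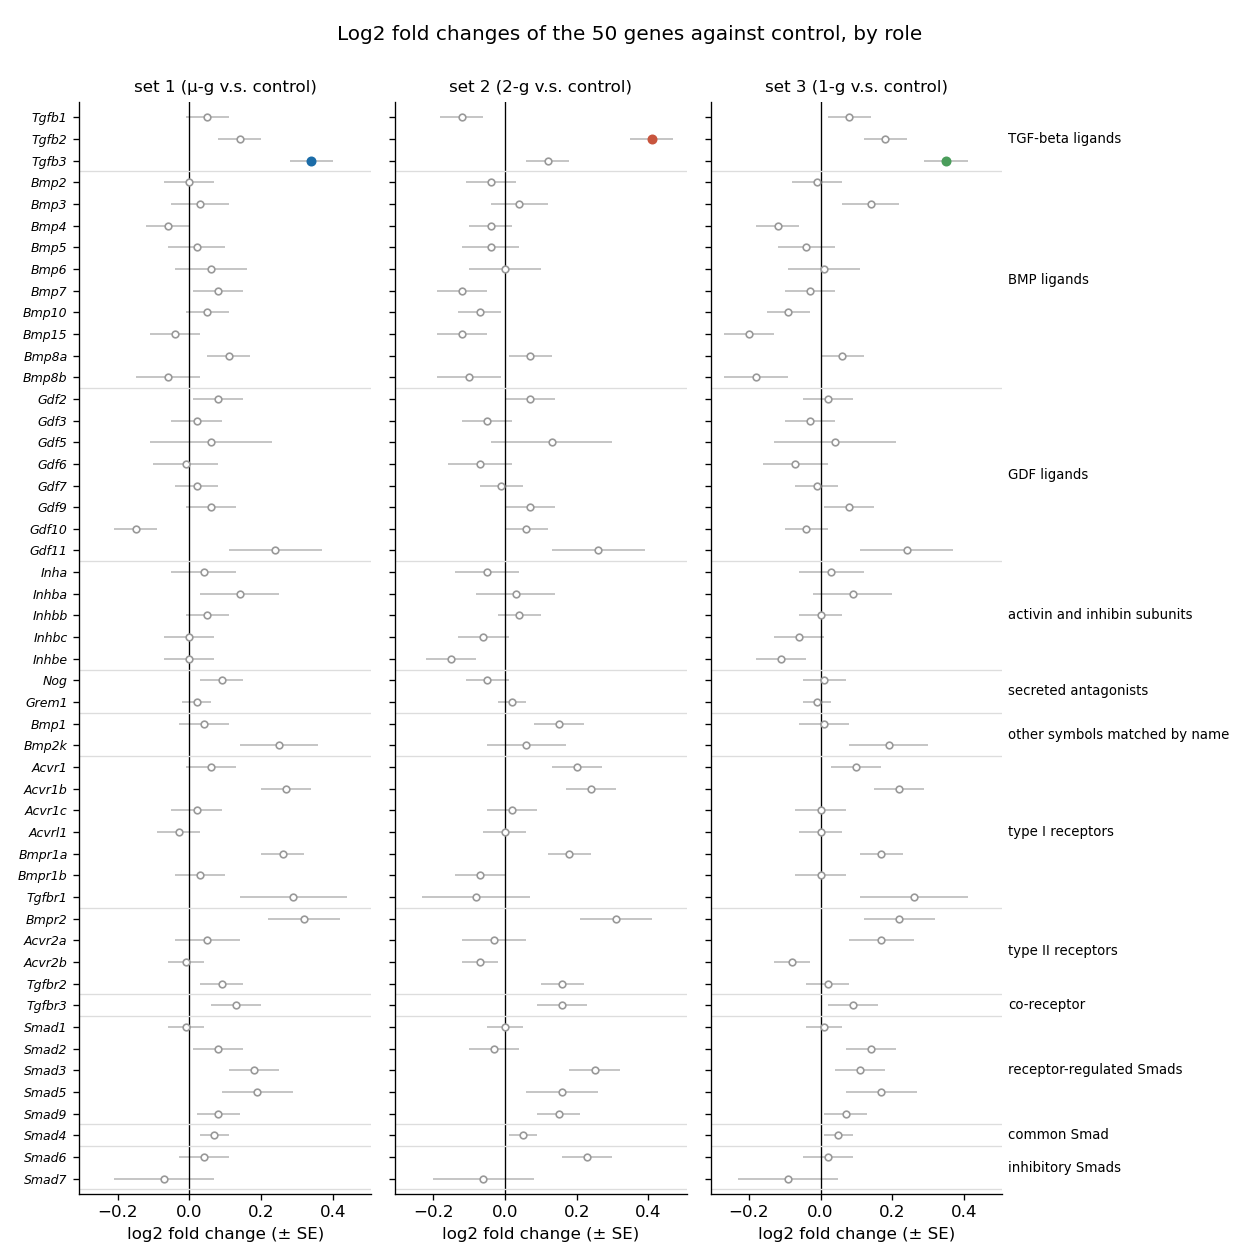
Log2 fold changes ± SE (x axis) of the 50 genes, by role (y axis), in set 1, set 2 and set 3, with filled points for an adjusted p under 0.05 and open points for the rest. The filled points are Tgfb3 in set 1 (0.34) and set 3 (0.35) and Tgfb2 in set 2 (0.41).

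Over all 50 genes the changes were small. The largest fold change of a member, in either direction, was 1.27 in set 1, 1.32 in set 2, 1.28 in set 3, 1.29 in set 4, 1.12 in μ-g v.s. 1-g and 1.27 in 2-g v.s. 1-g. The median log2 fold change of the members was 0.05 in set 1, 0.02 in set 2, 0.02 in set 3, 0.03 in set 4, 0.03 in μ-g v.s. 1-g and 0.01 in 2-g v.s. 1-g, against medians of all genes between -0.02 and 0.03.

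Counts at an unadjusted P under 0.05 were set against those of all genes in each direction. In set 1, 7 members were higher and 1 lower, against 9.94% and 4.1% of all genes, where 7 of 50 is 14% and 1 of 50 is 2%. In set 2, 10 were higher (20%) and 1 lower, against 8.65% and 8.1%. The 10 were Tgfb2, the receptors Acvr1, Acvr1b, Bmpr1a, Bmpr2, Tgfbr2 and Tgfbr3, and Smad3, Smad6 and Smad9, and the 1 lower was Inhbe. In set 3, 4 members were higher and 1 lower, against 7.79% and 3.03%, and in set 4, 4 were higher and 3 lower, against 11.4% and 5.75%. In μ-g v.s. 1-g, 2 members (Bmp10 and Bmp15, both under the median gene level) were higher and 0 lower, against 1.37% and 0.938%, and in 2-g v.s. 1-g, 3 were higher and 4 lower, against 5.3% and 9.99%.

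With the replicate number as a block, 6 members passed in set 2 (Tgfb2, Gdf11, Acvr1, Acvr1b, Bmpr2 and Smad3, all higher), against 9.38% of all genes, where 6 of 50 is 12%. In set 3, 1 passed (Tgfb3), against 1.77%. In set 4, 3 passed (Tgfb3 and Tgfbr1 higher and Tgfb2 lower), against 9.18%, and in 2-g v.s. 1-g, 4 passed (Tgfb2 higher and Tgfb1, Tgfb3 and Tgfbr1 lower), against 7.57%. In μ-g v.s. 1-g, 0 passed, against 0%. As shares of the 50 genes, these are 2% in set 3, 6% in set 4 and 8% in 2-g v.s. 1-g.

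Genes that act around the ligands outside the cell showed few calls without the replicate block and more with it. Of 16 genes of latent TGF-beta storage and activation, 2 were called without the block, both higher at μ-g than at 2-g (set 4, against 2.88% of all genes). They were the matrix metalloproteinases Mmp9, at 8.86, 9.19 and 8.76 on the μ-g arrays, against 8.27, 8.35 and 8.62 on the 2-g arrays (log2 fold change 0.52, limma, adjusted p = 0.0452), and Mmp2, at 13.78, 13.73 and 13.78 on the μ-g arrays, against 13.50, 13.57 and 13.61 on the 2-g arrays (0.20, adjusted p = 0.0466). Both groups were apart in each gene. The mean of Mmp9 was 8.94 at μ-g, 8.77 at 1-g and 8.85 in control, against 8.41 at 2-g. That of Mmp2 was 13.76 at μ-g and 13.73 at 1-g, against 13.56 at 2-g and 13.59 in control. The Mmp2 call was lost without any 1 of the 12 arrays (adjusted p from 0.0509 to 0.165), and that of Mmp9 without any array but 1-g replicate 1 and 2-g replicate 3 (adjusted p up to 0.139). With the replicate block 6 of the 16 passed in set 2 (Ltbp2, Ltbp3, Lrrc32, Itgb8 and Plat higher and Mmp9 lower), against the 9.38% of all genes given above. In set 4, 4 passed (Mmp9 and Mmp2 higher and Thbs1 and Plat lower), against 9.18%, and in 2-g v.s. 1-g 3 passed (Thbs1 and Plat higher and Mmp2 lower), against 7.57%. Ltbp3 tethers latent TGF-beta to the matrix, and Thbs1 (thrombospondin 1) activates it. None of 6 other ligands of the family passed, with or without the block, and the gene with the smallest F test p, Nodal, a ligand of early embryos, ran from 5.94 to 6.24 (adjusted p = 0.371).

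Among 9 co-receptors and other receptors measured, 1 rose without the block, Rgmb, a co-receptor of BMPs of the repulsive guidance family. It was at 9.70, 10.13 and 10.03 on the 2-g arrays, against 9.46, 9.66 and 9.46 on the control arrays, with a log2 fold change of 0.43 ± 0.10 in set 2 (limma, adjusted p = 0.0381). All 2-g arrays were above the controls, and the call was lost without any 1 of 8 arrays (μ-g replicates 1 and 3, 1-g replicates 1 and 3, 2-g replicates 2 and 3 and control replicates 1 and 3, adjusted p up to 0.159). With the block Rgmb passed again in set 2 and Neo1, a receptor of the repulsive guidance family, passed in set 4 (0.23, adjusted p = 0.00553) and in 2-g v.s. 1-g (-0.22, adjusted p = 0.00864). In set 2, 3.11% of all genes passed without the block and 9.38% with it. With the block 9.18% passed in set 4 and 7.57% in 2-g v.s. 1-g.

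Of 19 extracellular antagonists and modulators, 1 was called without the block, in 2-g v.s. 1-g, where 2.26% of all genes passed. It was Wfikkn2, known for binding GDF8 and GDF11, at 5.88, 5.77 and 5.87 on the 2-g arrays, against 6.09, 6.22 and 6.04 on the 1-g arrays (-0.27, limma, adjusted p = 0.0417, lost without any array but μ-g replicate 2, up to 0.144). Its controls were at 5.89, 5.93 and 5.93. All its arrays lay under the median gene level of 7.08, and at low values transcript and background cannot be told apart. Fstl3, a binder of activin named after its values were seen, had log2 fold changes of 0.30 in set 2 (adjusted p = 0.283), -0.27 in set 3 (adjusted p = 0.501), -0.55 in set 4 (adjusted p = 0.0532) and 0.58 in 2-g v.s. 1-g (adjusted p = 0.0505). With the replicate block it passed in all 4 of these (adjusted p = 0.00549, 0.0273, 1.37e-04 and 1.21e-04). The block called 6 of the 19 in set 2 (Fstl3, Twsg1, Tll2, Nbl1, Bmper and Bgn, all higher), 2 in set 3 (Fstl3 and Dcn, lower), 4 in set 4 (Fstl3, Dcn, Fst and Nbl1, all lower) and 3 in 2-g v.s. 1-g (Fstl3 and Dcn higher and Wfikkn2 lower). Among all genes the block called 9.38%, 1.77%, 9.18% and 7.57% in these comparisons, in the same order.

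Of 21 intracellular regulators of Smads, none passed without the block. With it, 2 passed in set 2 (Smurf2, a ubiquitin ligase of Smads and receptors, higher and Nedd4l lower), 5 in set 4 (Tgif1, Nedd4l, Pmepa1, Map3k7 and Zfyve9, all higher) and 3 in 2-g v.s. 1-g (Tgif1, Nedd4l and Pmepa1, all lower), against 9.38%, 9.18% and 7.57% of all genes. Usp15, a deubiquitinase of receptor-regulated Smads, had the smallest F test p (adjusted p = 0.133), at 10.24, 10.03 and 10.25 on the μ-g arrays, against 10.08, 9.86 and 9.89 on the control arrays. Map3k7 (TAK1), the kinase of the Smad-independent branch, came next (adjusted p = 0.158), at 10.52, 10.21 and 10.44 on the μ-g arrays, against 10.26, 10.06 and 10.01 on the control arrays. In set 4 its value was 0.24 (adjusted p = 0.143, with the block 0.044).

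Target genes of the pathway were called in sets 1, 2 and 4 and in 2-g v.s. 1-g. Of 17 measured TGF-beta and activin target genes, of 19 listed, 2 rose in set 2 (Col1a1 and Col3a1), 3 fell in set 4 (Ccn2, Col3a1 and Lox), 3 rose in 2-g v.s. 1-g (Ccn2, Col1a1 and Col3a1) and none passed in sets 1 and 3 or in μ-g v.s. 1-g. Among all genes 3.11% passed in set 2, 2.88% in set 4 and 2.26% in 2-g v.s. 1-g. With the replicate block 7 target genes passed in set 2 (Col1a1, Col3a1, Tgfbi, Snai1, Snai2, Ldlrad4 and Lox, all higher), 1 in set 3 (Ccn2, lower), 7 in set 4 (Ccn2, Col1a1, Col3a1, Lox, Acta2, Snai1 and Junb, all lower) and 5 in 2-g v.s. 1-g (Ccn2, Col1a1, Col3a1, Lox and Snai1, all higher). The block called 9.38%, 1.77%, 9.18% and 7.57% of all genes in these comparisons, in the same order. The median of the 17 log2 fold changes was 0.16 in set 2, -0.17 in set 4 and 0.10 in 2-g v.s. 1-g, against medians of all genes of -0.00, 0.03 and -0.02. Cdkn1a is not analysed here.

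Ccn2, encoding connective tissue growth factor, was at 11.08, 11.13 and 11.16 on the μ-g arrays, 10.98, 11.28 and 11.05 on the 1-g arrays, 11.75, 11.66 and 11.85 on the 2-g arrays and 11.41, 11.73 and 11.40 on the control arrays. The μ-g and 1-g arrays were below all 2-g and control arrays. The log2 fold change was -0.63 ± 0.10 in set 4 (limma, adjusted p = 0.00517) and 0.65 ± 0.10 in 2-g v.s. 1-g (adjusted p = 0.00469), and both calls held without any single array. Against control it was -0.39 in set 1 (adjusted p = 0.0877), 0.24 in set 2 (adjusted p = 0.225) and -0.41 in set 3 (adjusted p = 0.114, with the replicate block 0.0459). Ccn2 is also known as a target of YAP.

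Col3a1 and Col1a1, chains of the fibrillar collagens III and I, were highest at 2-g. Col3a1 was at 8.23, 8.66 and 8.37 on the μ-g arrays, 8.16, 8.51 and 8.49 on the 1-g arrays, 8.89, 9.21 and 9.20 on the 2-g arrays and 8.14, 8.75 and 8.39 on the control arrays. The 2-g arrays stood above all others, with a log2 fold change of 0.67 ± 0.16 in set 2 (1.59-fold, limma, adjusted p = 0.0437), -0.67 in set 4 (adjusted p = 0.0447) and 0.71 in 2-g v.s. 1-g (adjusted p = 0.0414). With the replicate block the adjusted p-values were 6.83e-04, 2.98e-04 and 2.42e-04. Each of the 3 calls was lost without any 1 of 7 arrays, always μ-g replicate 3, 1-g replicates 2 and 3, 2-g replicates 2 and 3 and control replicate 3, and in addition control replicate 1 in set 2, μ-g replicate 1 in set 4 and 1-g replicate 1 in 2-g v.s. 1-g (adjusted p up to 0.186). Col1a1 was at 10.27, 10.21 and 10.30 on the 2-g arrays, against 9.74 to 10.03 on the other 9, with 0.41 in set 2 (adjusted p = 0.0177, lost without 2-g replicate 3, control replicate 1 or control replicate 3, up to 0.0858) and 0.38 in 2-g v.s. 1-g (adjusted p = 0.0258, lost without 1-g replicate 1 or 3 or any 2-g array, up to 0.107). Lox, the enzyme that cross-links collagen, had -0.36 in set 4 (adjusted p = 0.0455) and lost the call without any array but 1-g replicate 2 and control replicates 2 and 3 (up to 0.189).

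Of 12 measured BMP target genes, of 13 listed, Id2 alone passed without the block, and with it Dlx3 (set 2, 0.30, adjusted p = 0.0414) and Id3 did too. Runx2 is not analysed here. Id2, an inhibitor of basic helix-loop-helix factors, was at 9.86, 9.89 and 9.82 on the μ-g arrays, 9.92 to 10.05 on the 1-g arrays, 10.59, 10.83 and 10.52 on the 2-g arrays and 10.29, 10.64 and 10.21 on the control arrays. All μ-g and 1-g arrays were below all 2-g and control arrays. The log2 fold change was -0.79 ± 0.10 in set 4 (limma, adjusted p = 0.00209), 0.66 ± 0.10 in 2-g v.s. 1-g (adjusted p = 0.0077) and -0.52 ± 0.10 in set 1 (adjusted p = 0.0424). The first and the second of these held without any single array, and the set 1 call was lost without any array but μ-g replicate 2, 2-g replicate 2 and control replicate 3 (up to 0.174). With the replicate block Id2 also passed in set 2 (0.26, adjusted p = 0.0462) and set 3 (-0.39, adjusted p = 0.0273). Other Id genes did not share this pattern. Id1 ran from 8.55 to 8.90 with no call, and Id3 was lowest at 2-g, at 9.58, 9.10 and 9.58 on the 2-g arrays, against 9.99, 9.70 and 10.22 on the control arrays (-0.55, adjusted p = 0.0691, with the block 0.00265). With the block it also passed in set 4 (0.38, adjusted p = 0.0135) and in 2-g v.s. 1-g (-0.47, adjusted p = 0.0056). Among all genes 0.823%, 2.88% and 2.26% passed without the block in set 1, set 4 and 2-g v.s. 1-g. With it the shares were 9.38% in set 2, 1.77% in set 3, 9.18% in set 4 and 7.57% in 2-g v.s. 1-g.

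**Figure D4:**
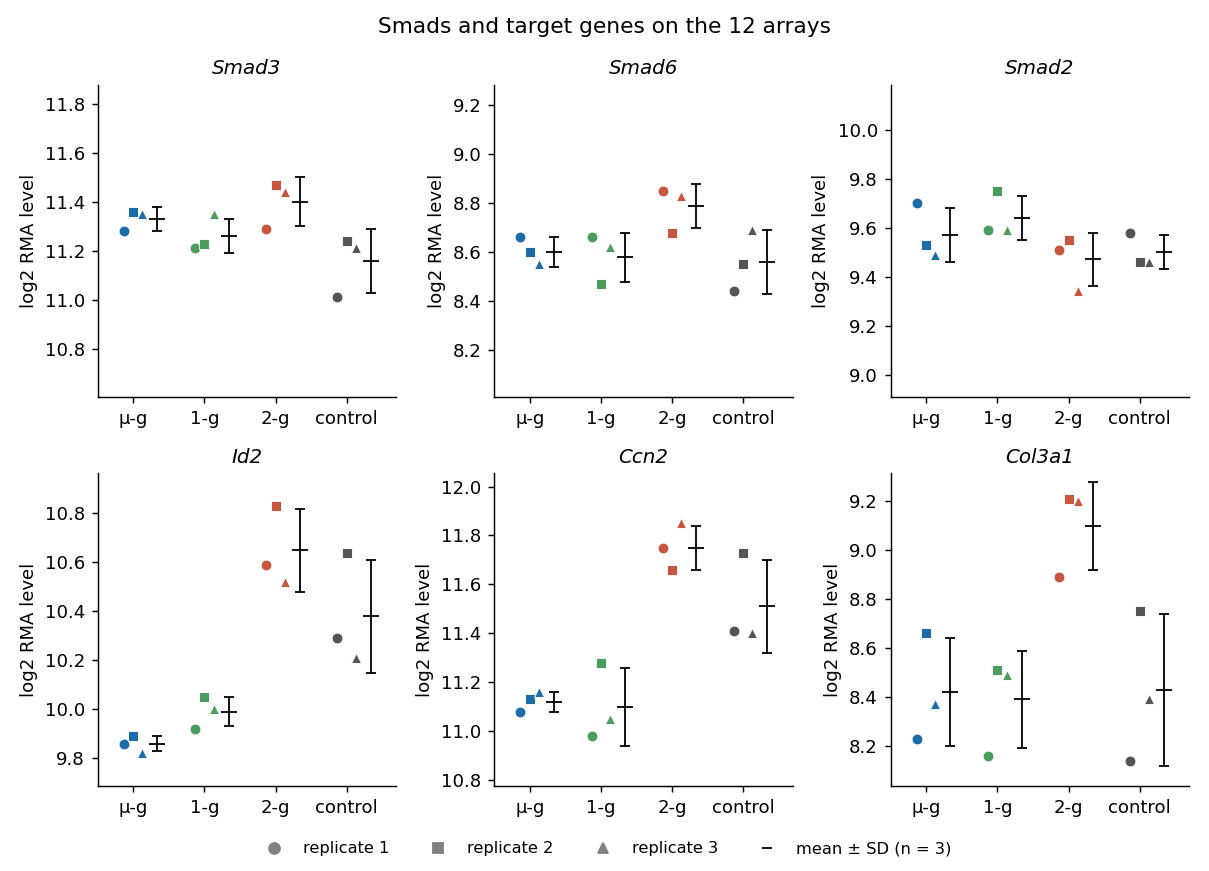
Log2 RMA levels of Smad3, Smad6 and Smad2 (top) and of the target genes Id2, Ccn2 and Col3a1 (bottom) on y axes with their own ranges, in the μ-g, 1-g, 2-g and control groups (x axis), with 1 symbol per array by replicate number and bars for the mean ± SD (n = 3). The μ-g and 1-g arrays of Id2 (9.82 to 10.05) and Ccn2 (10.98 to 11.28) lie below their 2-g and control arrays, and the 2-g arrays of Col3a1 (8.89 to 9.21) above all others.

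Without the block, 1 macrophage marker and 1 osteoclast marker passed, in comparisons in which Tgfb2 or a collagen gene also passed. The shares of all genes passing were 3.11% in set 2, 2.88% in set 4 and 2.26% in 2-g v.s. 1-g. Of 8 macrophage markers 1 passed, Cd68, higher in set 4 (0.55, limma, adjusted p = 0.0247) and lower in 2-g v.s. 1-g (-0.66, adjusted p = 0.0116), and of 7 osteoclast markers 1 passed, Ctsk, lower in set 2 (-0.50, adjusted p = 0.0179) and in 2-g v.s. 1-g (-0.61, adjusted p = 0.00672) and higher in set 4 (0.58, adjusted p = 0.0077). The Cd68 calls were lost without 2-g replicate 2 or 3, that of set 4 also without μ-g replicate 1 or 3 (up to 0.115) and that of 2-g v.s. 1-g also without 1-g replicate 1 (up to 0.0598), and the set 2 call of Ctsk without 2-g replicate 2 or 3 or control replicate 1 or 3 (up to 0.0883). Several markers of these cells lay under the median gene level of 7.08. Among macrophage markers these were Ptprc (5.52 to 5.83), Adgre1 (5.37 to 5.57), Itgam (5.71 to 6.04) and Fcgr1 (5.86 to 6.12). Higher were Cd68 (9.14 to 9.98), Cd14 (8.79 to 9.33), Lyz2 (7.05 to 7.77) and Csf1r (7.05 to 7.42). The osteoclast marker Ctsk ran from 11.93 to 12.78. All other osteoclast markers lay under the median gene level, among them Acp5 at 6.65 to 6.89 and Calcr at 5.56 to 5.88. The mean level of the macrophage list ran from 7.03 to 7.12 on the μ-g arrays, 6.98 to 7.14 on the 1-g arrays, 6.93 to 7.01 on the 2-g arrays and 7.00 to 7.13 on the control arrays, and that of the osteoclast list from 7.03 to 7.12, 7.03 to 7.04, 6.91 to 7.00 and 7.00 to 7.06 in the same order of groups. Of 5 osteoblast markers measured, of 8 listed, only Col1a1 passed, and none of 5 endothelial and 4 adipocyte markers did. With the block Alpl (set 2, 0.33, adjusted p = 0.0119), Cd68 (set 2, -0.40, adjusted p = 0.0161), Csf1r (set 3, -0.26, adjusted p = 0.038) and the adipocyte marker Fabp4 (set 4, -0.36, adjusted p = 0.0114) passed as well. The part of these genes in the results was not tested, and in RNA of whole cultures a change in the mix of cells and a change of RNA per cell cannot be told apart.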

How the data were processed

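The 12 arrays hold RNA of MLO-Y4 cells, 3 in each of 4 groups. The authors normalized the intensities by RMA and deposited log2 values of 28856 transcript clusters. The raw intensities were not used, no array was left out, and the number of arrays limits the precision. Of the clusters, 21789 carry 1 symbol, 1621 several and 5446 none or are not listed. For the 999 genes with several clusters the one with the highest mean was taken, which left 19938 genes. A cluster shared by Cers1 and Gdf1 was left out of the members.

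A mean per group was fitted by lmFit and eBayes of limma 3.58.1, run in R 4.3.3 over all clusters (8 residual and 3.9 prior degrees of freedom), with Benjamini-Hochberg adjustment over the genes. With 3 arrays a group, 0.1 is the smallest two-sided p of an exact test. The fit was tested on simulated data. Members, lists, motifs and tests were chosen with earlier results of these data known. Values on every array are given for members that pass at adjusted p with or without the block, then by the F test p and the size of the change. List genes named are those that passed, or else those with the smallest F test p.

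Replicate numbers recur in every group. Deviations from group means correlated at 0.3425 on average between arrays of the same number and at -0.1708 between arrays of other number and group. Deviations cancel out within a group, so the second value largely follows from the first and is no separate evidence of pairing. Each same-numbered pair was above 0.1 in every comparison but set 1 (0.0179 for replicates 3), so that a fit blocked on replicate number is given for the other comparisons if a call changes under it. No source used here explains the numbers, and the pairing rests on the correlations alone.

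The alternatives were the block, the 6 arrays of the 2 groups alone, genes above the median level, centred arrays, quantile normalization, an intensity trend with a robust prior, the mean of a gene's clusters, other thresholds and leaving out each array. Promoter windows came from RefSeq (GRCm38.p6).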

Additional observations from a re-analysis of the deposited data

How the results depend on the processing

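Counts of the 50 genes called depended on the setting. With the replicate number as a block, 5 were called in set 1 (Acvr1b, Bmp2k, Bmpr1a, Bmpr2 and Tgfb3), 6 in set 2, 3 in set 4, 4 in 2-g v.s. 1-g and 5 by the F test (Bmpr2, Smad3, Tgfb2, Tgfb3 and Tgfbr1). The 5 in set 1 are 10% of the members, against 4.7% of all genes, and the 5 by the F test 10%, against 11.7%. In set 1 the replicate numbers did not meet the rule for pairing, and the pathway genes Mmp2, Itgb8, Eng, Neo1, Fstl3, Dcn, Twsg1, Map3k7 and Ccn2 passed in set 1 only with the block. With only the 6 arrays of the 2 groups, 0 were called in sets 1, 3 and 4. With genes above the median level alone, 0 were called in sets 2 and 4, where Tgfb2 was not tested, and 1 by the F test. Quantile normalization gave 0 in sets 1 and 3 and 2 in set 4. An intensity trend with a robust prior gave 0 in sets 1, 3 and 4. At an unadjusted P under 0.05 the counts were 8, 11, 5 and 7 in sets 1 to 4, 2 in μ-g v.s. 1-g, 7 in 2-g v.s. 1-g and 10 by the F test, and with a change of more than 1.5-fold in addition 0 in sets 1 to 4. Leaving out 1 array at a time gave 0 to 3 in set 1, 1 to 1 in set 2, 0 to 1 in set 3, 0 to 2 in set 4, 0 to 0 in μ-g v.s. 1-g and in 2-g v.s. 1-g, and 1 to 2 by the F test. The 3 in set 1 came without μ-g replicate 2, the 2 in set 4 without 2-g replicate 1, and the 1 by the F test without 2-g replicate 2 or 3 or control replicate 1 or 3. Centred arrays and the mean of a gene's clusters left every count as it was, although with centred arrays Mmp2 in set 4 and Wfikkn2 in 2-g v.s. 1-g lost their calls. Each member had 1 cluster, so the mean of clusters left its values unchanged and could act only through other genes. The causes were not tested, apart from the smaller number of arrays or genes where the setting itself reduces it.

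The Tgfb2 call in set 2 passed in 18 of 18 alternatives (adjusted p from 7.95e-04 to 0.0436), that of Tgfb2 in set 4 in 8 of 18 (0.00436 to 0.167), that of Tgfb3 in set 1 in 9 of 19 (0.0153 to 0.148) and that of Tgfb3 in set 3 in 6 of 19 (0.0196 to 0.169). Of 40 fold changes of members at an unadjusted P under 0.05, none reversed in 748 alternatives. In most of these the compared group means stay as they were, so the sign could not change. Only centring, quantile normalization and leaving out an array of a compared group could move it. The 40 were chosen by P on these same arrays, so this count does not measure robustness. Background correction could not be varied, since raw intensities were not used, and slide or scan batches are not analysed here. Levels near background limit what low ligands can show.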

Other observations

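A cluster that the array assigns to both Cers1, a ceramide synthase, and Gdf1, a ligand of left-right patterning, was at 6.90, 7.03 and 6.84 on the μ-g arrays, 7.03, 6.96 and 6.76 on the 1-g arrays, 6.90, 6.89 and 6.93 on the 2-g arrays and 6.97, 7.05 and 7.00 on the control arrays. The 2-g arrays lay just below all control arrays and the other pairs of groups overlapped. No test was made of this cluster, and the array does not separate the transcripts of these genes.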
